A study of Mus musculus with 34 samples.

Results

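The regions described here are all those on mouse chromosome 11, in which 2 embryonic stem cell lines, XE 2-4 and D2 203, carried more ChIP-seq signal of both histone marks than the other lines. Members were taken by the chromosome in each region's name: 15671 of 248336 regions of the list shared by 3 of the count tables, and 6242 of 96988 regions of the list used for H3K27ac in the separate lines. The chromosome was selected on the levels of XE 2-4 and D2 203 themselves. Differences of these lines from other D2 lines are therefore given as a description, without a test, and tests are given only between lines that did not choose the members. A mean of at least 10 counts over the libraries of a table was reached by 3271 members for H3K9me3 and 8925 for H3K27ac in the repeated lines, and by 2063 and 6218 in the separate lines. The members lay between 3.1 and 122 Mb of a chromosome of 122082543 bp (mm10), and their median width was 595 bp in the shared list against 547 bp for all regions.

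Chromosome 11 of the mouse is gene-rich, and gains of whole chromosomes, this one among them, are known to arise in mouse embryonic stem cells kept in culture. H3K27ac, acetylation of lysine 27 of histone H3, marks active promoters and enhancers. H3K9me3, trimethylation of lysine 9, marks heterochromatin and covers many repeated sequences in embryonic stem cells, where zinc finger proteins of the KRAB family recruit the enzymes that write it.

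All cells were mouse embryonic stem cells grown in serum with LIF and with PD0325901 and CHIR99021, inhibitors of MEK and GSK3. In the series of separate lines each mark was profiled once in B6 4-1, B6 4-4 and B6 5-1, of strain C57BL/6J (B6), and in D2 2-9, D2 5-5 and D2 203, of strain DBA/2J (D2). In the series of repeated lines, technical replicates came from 1 line per genotype: B6 5-1, D2 5-5, QJ 6-1 (B6-13D2, a chromosome 13 segment of D2 on the B6 background) and XE 2-4 (D2-13B6, a chromosome 13 segment of B6 on the D2 background). Chromosome 11 is thus of the D2 strain in XE 2-4, D2 5-5, D2 2-9 and D2 203, as far as the labels say. H3K9me3 was repeated 3 times in B6 5-1 and XE 2-4 and 2 times in D2 5-5 and QJ 6-1, and H3K27ac 3 times in each line. P-values over repeated libraries measure the spread between technical replicates of single lines, so they compare lines and not genotypes. The H3K27ac antibody came from abcam for the separate lines and from Cell Signaling Technology for the repeated lines, and levels were compared only within a series. The series description and the labels name different end markers for the segment of D2-13B6. DNA copy number and input libraries were not analysed here.

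Libraries held 1487862 to 2559262 counts in regions for H3K9me3 in the separate lines, 1538145 to 2185977 in the repeated lines, and 15444270 to 18272793 and 8735674 to 11543469 for H3K27ac. Single H3K9me3 regions rest on few counts. Replicates 1 and 2 of B6 5-1, 1 and 3 of QJ 6-1, 1 and 3 of D2 5-5 and 2 and 3 of XE 2-4 for H3K27ac did not differ beyond sampling noise, so each such pair was summed into 1 sample and each line had n = 2. The rule was a chi-square per degree of freedom under 1. In B6 5-1, QJ 6-1 and D2 5-5 the other pairs lay just above it, at 1.005 to 1.027. In these lines the third library was thus hardly more distinct than the summed pair. Replicate 1 of XE 2-4 stood apart from the other 2 in both marks. The summed H3K27ac of 8 stem cell markers at their gene starts, Pou5f1, Sox2 and Nanog among them, was 891 to 1170 CPM (counts scaled to library size) in the repeated lines and 1550 to 1740 CPM in the separate lines. Marker lists of other cell types summed to at most 20.8 CPM in the repeated lines. The summed H3K27ac of the 2 trophoblast markers, Cdx2 and Elf5, differed between lines without overlap. It was 14.3 to 18 CPM in XE 2-4 and 10.9 to 13.4 in D2 5-5. In QJ 6-1 it was 8.23 to 10.2 and in B6 5-1 5.06 to 7.3. Most of the sum was Cdx2, with a mean of 9.69 CPM over the repeated libraries against 1.29 for Elf5. The 2 genes were not read apart by line. The 3 fibroblast markers with a region summed to 8.94 to 19.8 CPM in XE 2-4, within the 5.64 to 20.8 CPM of all lines. The part of such cells in the results was not tested.

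Sequences are shown first for 4 of the regions that departed most from the rest of the chromosome in XE 2-4, because these regions share a stretch of sequence. Each is from mm10, read 5′ to 3′, with capitals marking a run of 16 bases that was found among the regions with less H3K9me3 and more H3K27ac than the chromosome as a whole, and that most of those regions hold. The first, chr11:58474912-58475108 on the minus strand, is intergenic, 12.6 kb from Olfr30, an olfactory receptor gene. It holds the run but is not one of those regions, because its H3K9me3 counts were under the count minimum. The second, chr11:13546899-13547198 on the plus strand, is intergenic and 1051.9 kb from Pom121l12. The third, chr11:29961163-29961462 on the plus strand, lies in an intron of Eml6, and the fourth, chr11:9365098-9365397 on the minus strand, in an intron of Abca13, a gene of the ABC transporter family. The sequences are those of the reference genome, which is of strain B6, and not of the D2 background of XE 2-4.
Near Olfr30: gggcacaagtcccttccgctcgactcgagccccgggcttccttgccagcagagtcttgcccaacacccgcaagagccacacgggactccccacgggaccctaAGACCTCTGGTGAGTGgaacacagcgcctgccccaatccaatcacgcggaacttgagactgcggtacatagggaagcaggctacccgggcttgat
Near Pom121l12: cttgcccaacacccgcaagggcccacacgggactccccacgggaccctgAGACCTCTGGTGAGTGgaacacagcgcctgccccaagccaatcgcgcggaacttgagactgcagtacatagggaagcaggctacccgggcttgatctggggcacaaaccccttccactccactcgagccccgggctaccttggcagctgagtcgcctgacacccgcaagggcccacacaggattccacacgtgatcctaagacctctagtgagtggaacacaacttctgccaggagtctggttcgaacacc
Intron of Eml6: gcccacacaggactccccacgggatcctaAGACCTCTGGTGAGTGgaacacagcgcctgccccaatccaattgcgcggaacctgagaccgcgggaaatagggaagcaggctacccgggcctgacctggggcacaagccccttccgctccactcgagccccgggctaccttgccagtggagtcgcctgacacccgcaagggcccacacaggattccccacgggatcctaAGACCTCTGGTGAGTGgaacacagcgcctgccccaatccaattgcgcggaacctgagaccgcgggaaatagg
Intron of Abca13: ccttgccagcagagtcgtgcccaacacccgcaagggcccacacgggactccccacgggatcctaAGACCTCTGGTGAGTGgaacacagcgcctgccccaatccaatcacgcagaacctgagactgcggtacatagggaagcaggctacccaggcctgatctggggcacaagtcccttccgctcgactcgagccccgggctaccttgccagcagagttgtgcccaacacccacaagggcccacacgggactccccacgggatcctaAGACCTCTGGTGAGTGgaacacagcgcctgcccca
All 4 stretches are repeat-masked over 100% of their length in the reference. In the Eml6 and Abca13 stretches the run occurs in 2 copies.

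The question was how far the level of chromosome 11 in each library stood from that of the other autosomes, with chromosome 13 left out because the congenic segments lie there. For each library and region, log2 CPM was taken against the mean of its table, and the shift is the median over chromosome 11 minus the median over the other autosomes. The table mean includes XE 2-4, so the other lines fall below 0 when it is high. For H3K9me3 the XE 2-4 libraries had shifts of 0.31, 0.39 and 0.38, the D2 5-5 libraries -0.10 and -0.02, the B6 5-1 libraries -0.20, -0.17 and -0.17, and the QJ 6-1 libraries -0.19 and -0.23. Every XE 2-4 library lay above every library of the other lines. For H3K27ac the shifts were 0.29, 0.22 and 0.21 in XE 2-4, -0.04, -0.04 and -0.03 in D2 5-5, -0.05, -0.07 and -0.07 in B6 5-1, and -0.14, -0.13 and -0.15 in QJ 6-1. The XE 2-4 mean was 0.36 ± 0.05 (SD, n = 3) for H3K9me3 and 0.25 ± 0.06 (SD, n = 2) for H3K27ac. Replicate 1 of XE 2-4, the library that stood apart, was the lowest of the 3 for H3K9me3 and the highest for H3K27ac.

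Among the 6 separate lines D2 203 had the highest shift in both marks. It was 0.12 for H3K9me3 and 0.15 for H3K27ac, with 1 library each. The other 5 lines ran from -0.06 to 0.00 for H3K9me3 and from -0.06 to 0.01 for H3K27ac. D2 5-5, the D2 line also used for the repeated libraries, stood at 0.01 for H3K27ac. D2 203 thus stood above both other D2 lines in both marks. The H3K9me3 shift depended on the count minimum: with none it was 0.28 in XE 2-4 and 0.07 in D2 203, and under a minimum mean of 40 counts it was 0.23 and 0.16.

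**Figure D1:**
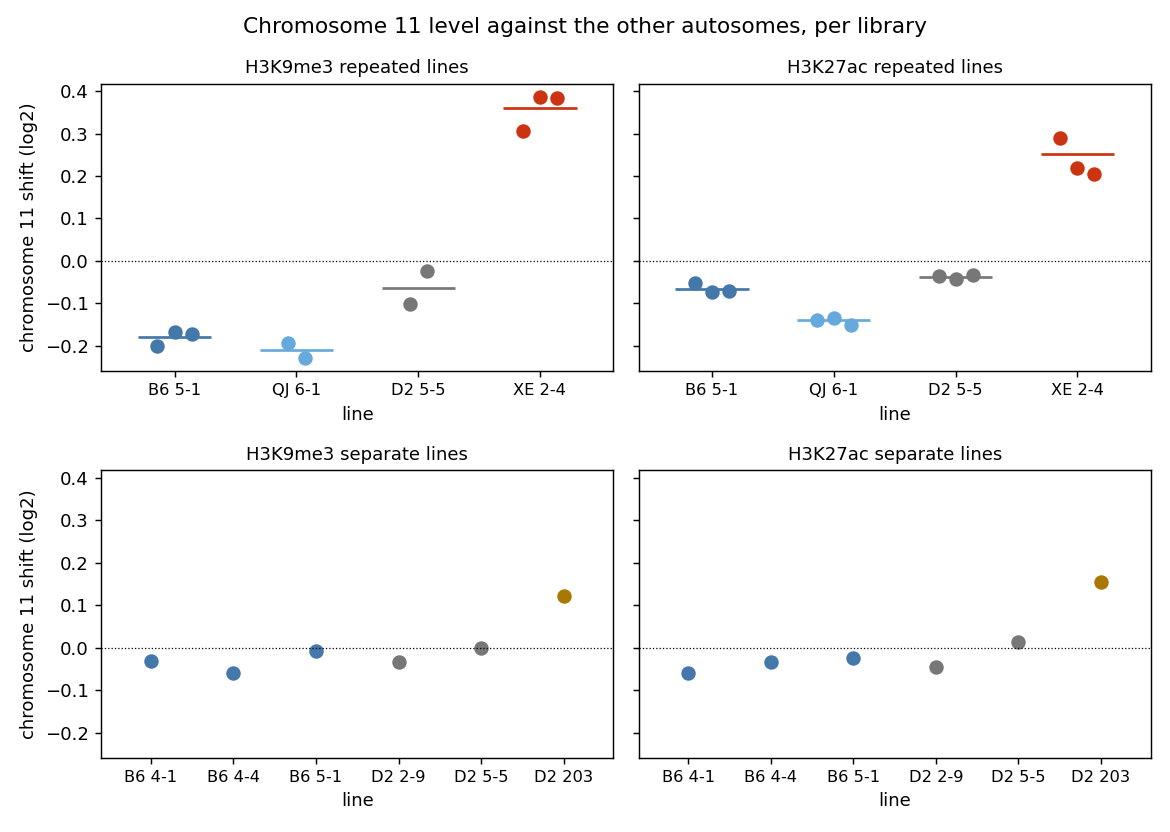
Chromosome 11 shift of each library (y axis, log2, relative to the other autosomes without 13) by line (x axis) in the 4 count tables; points are libraries and horizontal bars the mean of a repeated line, with libraries within sampling noise counted once. The XE 2-4 points sit between 0.21 and 0.39, above all other points of their panels, and D2 203 is the highest point of the separate lines at 0.12 and 0.15.

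The same difference was visible in summed counts. Chromosome 11 held 8.01 to 8.52% of autosomal H3K9me3 counts in XE 2-4, against 6.02 to 6.31% in D2 5-5, 5.75 to 5.92% in B6 5-1 and 5.57 to 5.68% in QJ 6-1. For H3K27ac the share was 9.37 to 9.69% in XE 2-4, 7.71 to 7.80% in D2 5-5, 7.73 to 7.76% in B6 5-1 and 7.29 to 7.34% in QJ 6-1. In D2 203 the share was 8.602% for H3K27ac (95% Wilson interval 8.589 to 8.615, counting error only) and 5.851% for H3K9me3 (5.818 to 5.885). The other separate lines held 7.62 to 7.87% and 5.30 to 5.65%. No other autosome had an upward shift as large in XE 2-4. For H3K9me3 the others ran from -0.23 (chromosome 13) to 0.13 (chromosome 12), and for H3K27ac from -0.14 (chromosome 13) to 0.05 (chromosome 12). In D2 203 the others ran from -0.06 to 0.04 for H3K9me3 and from -0.05 to 0.04 for H3K27ac.

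Region by region, the difference between XE 2-4 and D2 5-5, relative to the other autosomes, had a median of 0.43 on the log2 scale for H3K9me3, a ratio of 1.35, and 3516 of 4095 regions (85.9%) lay above 0. For H3K27ac the median was 0.30, a ratio of 1.23, with 8382 of 10845 regions (77.3%) above 0. For D2 203 against the mean of D2 2-9 and D2 5-5 the medians were 0.13 for H3K9me3 (ratio 1.09, 61.8% of 2718 regions above 0) and 0.17 for H3K27ac (ratio 1.13, 80.3% of 6132 regions above 0). For scale, a ratio of 3 to 2 is 0.58 in log2. The spread of single regions around the chromosome's median was close to that of the other autosomes, with a robust SD of 0.39 against 0.38 for H3K9me3 and 0.40 against 0.42 for H3K27ac in XE 2-4.  Whether copy number had a part in the shift was not tested.

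Along the chromosome the shift of XE 2-4 covered its whole length. In all 25 windows of 5 Mb the median difference from D2 5-5 was above 0 in both marks. For H3K9me3 the lowest windows were 45 to 50 Mb at 0.26, 25 to 30 Mb at 0.28 and 30 to 35 Mb at 0.30. The highest were 0 to 5 Mb at 0.61, 80 to 85 Mb at 0.55 and 115 to 120 Mb at 0.49. For H3K27ac the order was another one: the lowest windows were 115 to 120 Mb at 0.18, 55 to 60 Mb at 0.24 and 90 to 95 Mb at 0.25, and the highest were 25 to 30 Mb at 0.40, 35 to 40 Mb at 0.40 and 10 to 15 Mb at 0.39. The window of 115 to 120 Mb was therefore among the 3 highest for H3K9me3 and the lowest for H3K27ac, and 25 to 30 Mb was among the 3 lowest for H3K9me3 and the highest for H3K27ac. Over the 25 windows the marks had a Pearson correlation of -0.17 and a Spearman correlation of -0.09, a description over windows that share libraries. Of the windows of the other autosomes, 0 of 450 for H3K9me3 and 12 of 451 for H3K27ac lay above the median over chromosome 11 regions.

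Library by library, every XE 2-4 library lay above every library of the other lines in 22 of 25 windows for H3K9me3 and in 23 of 25 for H3K27ac. The window of 25 to 30 Mb was an exception in both marks. Against D2 5-5 alone, XE 2-4 had a median difference of 0.28 for H3K9me3 and 0.40 for H3K27ac there. D2 5-5 minus B6 5-1 had its lowest window of both marks there, at -0.60 and -0.26. In D2 203, the median difference from the other D2 lines was above 0 in 25 of 25 windows for H3K27ac, from 0.04 at 10 to 15 Mb to 0.22 at 115 to 120 Mb. For H3K9me3 it was above 0 in 24 of 25 windows, from -0.03 at 0 to 5 Mb to 0.24 at 15 to 20 Mb. In windows of 2 Mb, 48 of 60 were above 0 for H3K9me3 and 58 of 60 for H3K27ac in D2 203, and all 59 and all 60 in XE 2-4. For D2 203, 18 of 451 windows of 5 Mb on the other autosomes lay above the median over chromosome 11 regions for H3K9me3. For H3K27ac it was 2 of 449. Thus the window of 0 to 5 Mb, the highest of XE 2-4 for H3K9me3, was the lowest of D2 203, on 49 regions. The D2 203 library was the highest of its table in 20 of 25 windows for H3K27ac and in 17 of 25 for H3K9me3.

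**Figure D2:**
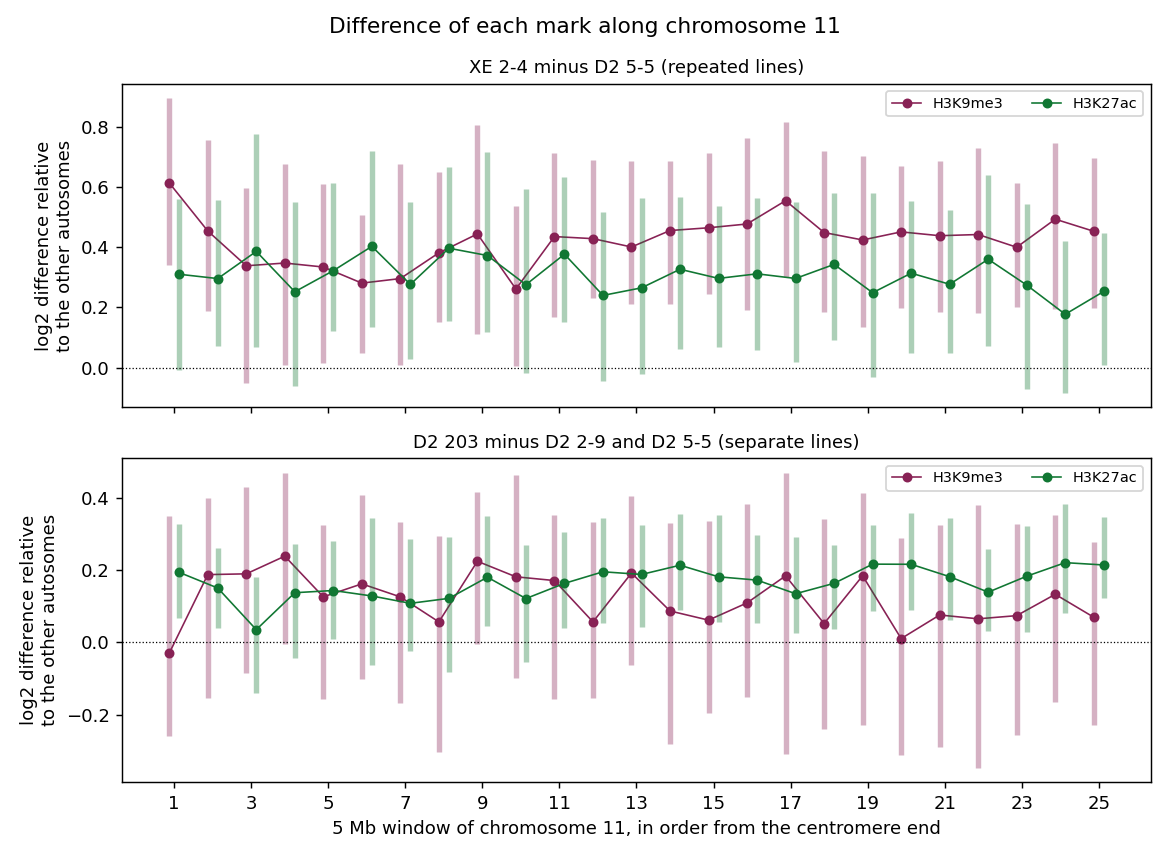
Median log2 difference relative to the other autosomes (y axis) in each 5 Mb window of chromosome 11 in order along the chromosome (x axis), for XE 2-4 against D2 5-5 (top) and D2 203 against the other D2 lines (bottom); bars span the middle 50% of regions. In XE 2-4 all 25 windows of both marks are above 0, between 0.26 and 0.61 for H3K9me3 and between 0.18 and 0.40 for H3K27ac, and in D2 203 they run from -0.03 to 0.24 and from 0.04 to 0.22.

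The shift was present in every class of region. For H3K9me3 in XE 2-4, the chromosome 11 median exceeded that of the other autosomes by 0.46 at regions within 1 kb of a coding gene's start, 0.41 in exons, 0.44 in introns and 0.37 between genes. For H3K27ac these values were 0.30, 0.31, 0.31 and 0.29. By level, the H3K9me3 difference went from 0.52 in the lowest 25% of regions to 0.39 in the highest 25%, and the H3K27ac difference stayed between 0.28 and 0.30 over the 4 level classes. In D2 203 the H3K27ac difference was 0.16 at gene starts and 0.19 between genes, and the H3K9me3 difference 0.12 and 0.14. In exons the D2 203 values were 0.18 for H3K27ac and 0.04 for H3K9me3.

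At the starts of coding genes, the groups of genes were read against all gene starts of the chromosome. The lists were chosen with earlier results known. Of 1275 chromosome 11 genes with a region at the start that passed the count minimum, 1143 were above 0 in XE 2-4 relative to the other autosomes, with a median of 0.29, and at 894 (70.1%) every XE 2-4 sample lay above every D2 5-5 sample on that scale. The same held for 26.1% of gene starts over all chromosomes. In D2 203, 963 of 1171 gene starts (82.2%) lay above both other D2 lines, against 34.4% over all chromosomes, with a median of 0.16. For H3K9me3 the counts were 373 of 888 (42%) in XE 2-4, against a background of 13.7%, and 70 of 275 (25.5%) in D2 203, against 19.7%. More of these D2 203 gene starts, 115, lay below both other D2 lines, a side for which no background was computed. Only 119 of the 275 were above 0, with a median of -0.08. Regions at gene starts of the other autosomes had a median of -0.19 on that scale.

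Among 13 genes of cell cycle, DNA repair and cell death, all 13 had more H3K27ac in every XE 2-4 sample, with a median of 0.31, and 12 of 13 in D2 203, with a median of 0.16. At Trp53, the gene of the tumour suppressor p53, the level was 146 to 164 CPM in XE 2-4 and 123 to 129 in D2 5-5, a relative difference of 0.35. Rad51c, a recombination repair gene, had 51.2 to 54.9 against 39.3 to 40.7 CPM. Aurkb, the gene of a mitotic kinase, differed least, with 26.9 to 27.6 against 22.4 to 25.4 CPM (0.19). At Brca1 the D2 203 library had 71.2 CPM against 68.3 and 70.8 in the other D2 lines, where XE 2-4 had 65.3 to 76.4 against 57.6 to 59.1 in D2 5-5.

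Of 14 genes of growth and LIF signalling, 9 had more H3K27ac in every XE 2-4 sample, with a median of 0.26, and 12 in D2 203, with a median of 0.22. Lif, the cytokine that holds these cultures in self-renewal, had 22.4 to 25.5 CPM in XE 2-4 and 19.4 to 20.8 in D2 5-5. Axin2, a target of Wnt signalling, had 46.1 to 51.3 against 35.2 to 38.0 CPM. Stat3, the transcription factor downstream of LIF, overlapped, with 35.7 to 39.9 against 35.5 to 40.3 CPM (relative difference 0.05). Among chromatin genes, 12 of 15 in XE 2-4 and 15 of 16 in D2 203 were higher, for example Suz12, a subunit of the Polycomb complex PRC2, with 113 to 124 against 94.6 to 98.7 CPM, and Kat7, a histone acetyltransferase, with 170 to 189 against 136 to 146 CPM.

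In the Hoxb cluster, patterning genes of the embryo's axis, only 3 of 9 gene starts were above 0 for H3K27ac in XE 2-4, 0 were higher in every sample and 2, Hoxb1 and Hoxb2, were lower in every sample relative to the other autosomes once the libraries within sampling noise were summed, although the single libraries overlapped. The median was -0.12, where all chromosome 11 gene starts had 0.29. Hoxb2 had 3.86 to 6.49 CPM in XE 2-4 against 5.47 to 6.21 in D2 5-5, and Hoxb1 0.902 to 1.49 against 1.32 to 1.5. For H3K9me3, 8 of the 9 were above 0, with a median of 0.41. In D2 203 all 3 Hoxb genes with a region had more H3K27ac, with a median of 0.30. Among 13 lineage regulators, 5 were higher in every XE 2-4 sample, Hand1, a factor of heart and extraembryonic development, with the largest difference at 2.34 to 3.86 against 1.27 to 1.91 CPM. The sum of the trophoblast markers, given above and mostly from Cdx2, was also higher in XE 2-4. Of 4 imprinted genes, 2 were higher, with a median of 0.26, and of 18 zinc finger (Zfp) genes 14, with a median of 0.24. For Olfr genes, olfactory receptors, only 3 of 82 had a region at the start that passed.

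Regions that exceeded or missed the shift were taken as those at least 1 log2 unit above or below the chromosome's own median difference. In addition, the samples of the 2 lines were not to overlap after that median was taken off. H3K27ac libraries within sampling noise were first summed to 1 sample, so single libraries could overlap. In XE 2-4 against D2 5-5 this gave 255 regions above and 115 below for H3K27ac, which is 2.35% and 1.06% of 10845. By the same rule, 4.01% and 1.27% of regions over all chromosomes lay above and below their own chromosome's median. For H3K9me3, 52 lay above and 74 below, 1.27% and 1.81% of 4095, where the background was 0.937% and 2.99%. These counts used the contrast that chose the chromosome, and nothing is read from them. Without replicate 1 of XE 2-4 they were 303 and 204 for H3K27ac and 122 and 134 for H3K9me3. Fewer XE 2-4 samples then had to meet the no-overlap rule, which by itself lets more regions pass. Under a minimum mean of 40 counts the numbers were 133 and 25, and 1 and 7. The members nearest the threshold lay at 1.006 inside and 0.996 outside for H3K9me3 above the shift, -1.006 and -0.989 below it, and 1.00 and 0.998, and -1.003 and -0.998, for H3K27ac.

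Of the regions with H3K27ac above the shift, most lay outside genes or in introns: 171 of the 255 were intergenic, 66 intronic and 5 at gene starts. The region near Olfr30, whose sequence is given above, had 82, 59 and 66 counts in XE 2-4 and 3, 1 and 2 in D2 5-5, a level at least 21.5-fold higher. It had 1, 6 and 2 counts in B6 5-1 and 1, 2 and 1 in QJ 6-1, so XE 2-4 was the only one of the 4 lines above 6 counts there. The region near Pom121l12, chr11:13546769-13547330, had 146, 105 and 120 counts against 5, 6 and 5. Region chr11:40909317-40910374, intergenic and 154.0 kb from Ccng1, had 135, 98 and 102 against 5, 4 and 7. The Eml6 region, chr11:29960694-29961932, had 116, 92 and 106 counts in XE 2-4, 7, 10 and 10 in D2 5-5, 12, 7 and 6 in QJ 6-1, and 50, 61 and 61 in B6 5-1. At Eml6 the lines with B6 chromosome 13 segments were high and those with D2 segments low.

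H3K27ac below the shift took in 54 intronic and 40 intergenic regions of 115. At chr11:33958273-33960102, in an intron of Kcnip1, which encodes a potassium channel partner protein, XE 2-4 had 28, 28 and 36 counts and D2 5-5 had 69, 75 and 70. B6 5-1 had 55, 59 and 50 and QJ 6-1 had 69, 72 and 60 there, so XE 2-4 was the lowest of the 4 lines with no overlap. The region with the largest departure, chr11:90025765-90026201, 4.1 kb from Tmem100, had 2, 16 and 13 counts against 20, 18 and 18. Its low of 2 counts was in replicate 1, which stood apart.

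For H3K9me3 the regions below the shift held the larger departures. Chr11:21256212-21257208, in an intron of Vps54, a gene of vesicle trafficking, had 5, 6 and 5 counts in XE 2-4 and 36 and 28 in D2 5-5. B6 5-1 had 6, 3 and 2 and QJ 6-1 had 61 and 67, so the mark was present in the lines with D2 alleles at the chromosome 13 segment and low in the lines with B6 alleles there. In the Abca13 region, chr11:9364807-9365690, XE 2-4 had 7, 8 and 12 counts, D2 5-5 34 and 38, B6 5-1 45, 45 and 32, and QJ 6-1 40 and 41, so XE 2-4 alone was low. In an intron of Sgcd, the gene of delta-sarcoglycan, chr11:47794007-47794619 had 5, 9 and 5 counts in XE 2-4 and 23 and 16 in D2 5-5, while B6 5-1 had 3, 6 and 3 and QJ 6-1 17 and 29, as at Vps54. H3K9me3 above the shift rested on few counts: at Etaa1, a gene of the replication stress response, chr11:17939093-17939692 had 22, 15 and 15 counts against 1 and 5. B6 5-1 had 42, 29 and 35 counts there and QJ 6-1 had 22 and 26, so D2 5-5 was the low line, and in the separate lines the D2 lines had 7.49 to 12 CPM against 61.5 to 78.3 in the B6 lines. At the start of Limk2, the gene of a cytoskeletal kinase, the level was at least 5.3-fold higher, with 10, 15 and 28 counts against 2 and 3, and XE 2-4 at 8.99 to 19.7 CPM was above B6 5-1 at 3.68 to 6.54 and QJ 6-1 at 2.03 to 6.16.

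Among regions past the threshold in both marks, the marks mostly lay on opposite sides of the shift. Of 3704 chromosome 11 regions that could be read in both marks, 36 passed in both, and at 34 of these H3K9me3 lay below the shift and H3K27ac above it. The opposite pattern was found at 1 region, 1 was above in both and 0 were below in both. Without replicate 1 of XE 2-4, with fewer samples to meet the rule, there were 37 such regions, 31 of them among the 34. The 34 regions make up 0.918% of those read, and the share over all chromosomes was 1.76%. Of the 34, 27 were intergenic, 6 intronic, 1 exonic and 0 at a gene start. Their median H3K9me3 level was 8.54, 8.22 and 8.43 CPM in the XE 2-4 libraries and 19.7 and 17.8 in D2 5-5. It was 17.4, 15.2 and 16.6 in B6 5-1 and 18.8 and 22.0 in QJ 6-1, and the place of XE 2-4 below D2 5-5 was set by the choice of the regions. Their median H3K27ac level was 9.30, 7.27 and 6.92 CPM in XE 2-4, 0.911, 1.26 and 0.920 in D2 5-5, 1.45, 1.59 and 1.27 in B6 5-1 and 0.402, 0.667 and 0.472 in QJ 6-1. The place of XE 2-4 above D2 5-5 was again set by that choice. Of the other 3 lines, B6 5-1 had the highest levels and QJ 6-1 the lowest.

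**Figure D3:**
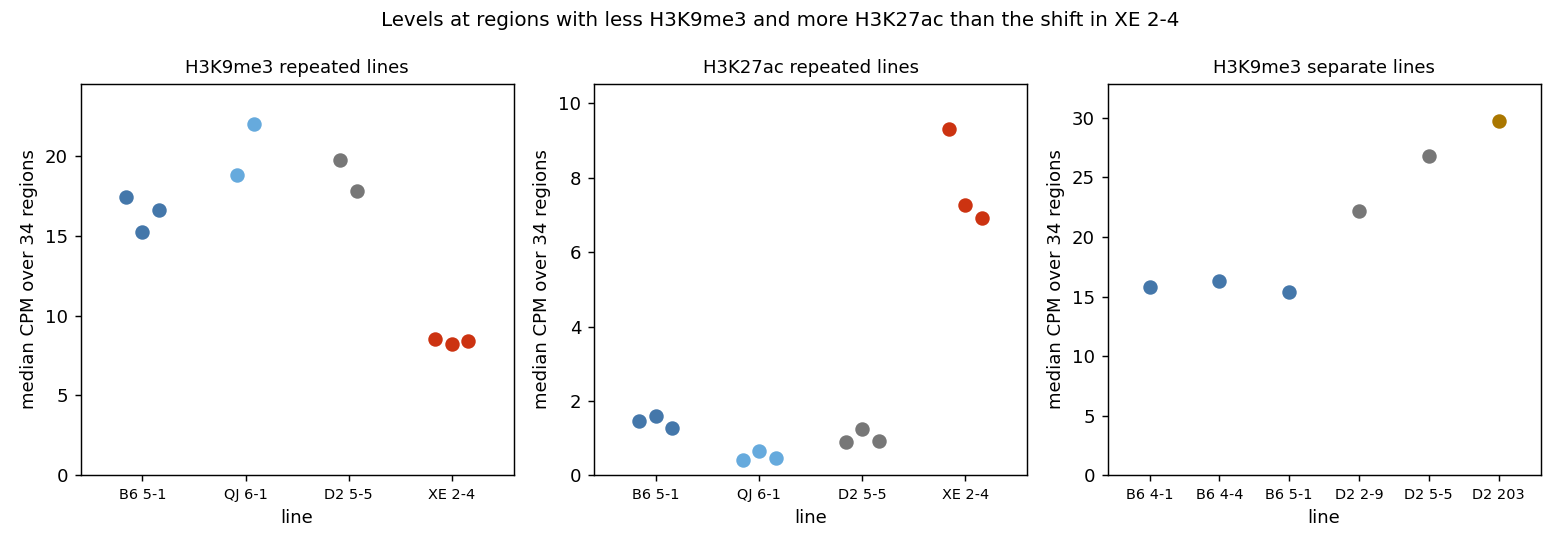
Median CPM over the 34 regions with less H3K9me3 and more H3K27ac than the shift in XE 2-4 (y axis) in each library, by line (x axis), for both marks in the repeated lines and for H3K9me3 in the separate lines. The regions were chosen for XE 2-4 against D2 5-5, which sets the order of those 2 lines (8.22 to 8.54 CPM in XE 2-4 for H3K9me3 and 6.92 to 9.30 for H3K27ac), and D2 203 is at 29.7 CPM for H3K9me3.

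In the separate lines, where H3K9me3 could be read at all 34 regions, D2 203 had a median H3K9me3 level of 29.7 CPM, D2 2-9 had 22.2 and D2 5-5 26.8, and the B6 lines had 15.4 to 16.3. Relative to the shift of D2 203 itself, the median of the 34 was 0.16 above, where all regions of the chromosome have 0 by construction.

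The run was looked for among the 34 regions, so its frequency there is a description. It reads AGACCTCTGGTGAGTG, or CACTCACCAGAGGTCT on the other strand, and both strands were searched. It occurred in 23 of the 34 regions (67.6%), in 67 of all 15671 chromosome 11 regions (0.428%) and in 2090 of 213345 regions of the other autosomes without 13 (0.98%). Among the 34, 11 held 2 or more copies, and the 14 distances between neighbouring copies had a median of 201 bases, from 198 to 402. It was found in 30 of the 74 regions with H3K9me3 below the shift (40.5%) and in 45 of the 255 with H3K27ac above it (17.6%). Both sets include the 34 regions by definition, and with them the 23 that hold the run. These shares are therefore part of the same description and no separate evidence. It was in 0 of the 52 regions with H3K9me3 above the shift and 0 of the 115 with H3K27ac below it. Among regions that did neither, 15 of 3969 (0.378%) and 8 of 10475 (0.0764%) held it.

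Of the bases of the 34 regions 72.6% were repeat-masked, against 21.4% over all chromosome 11 regions. The value was 53.7% for H3K9me3 below the shift, 40.0% for H3K27ac above it, 20.8% for H3K9me3 above it and 24.0% for H3K27ac below it. The 34 regions were also richer in CpG, with 32.9 per kb against 20.9, and in G and C, with 54.0% against 50.4%. The regions share sequence with each other and with copies elsewhere, so they are not independent. How reads that match several copies equally well were placed is not given in the sources used here.

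The reciprocal line QJ 6-1 offered another comparison: the D2 segment of chromosome 13 on the B6 background against the B6 line. Its contrast holds no library of XE 2-4 or D2 5-5. The count filter, scaling and estimate of spread of the edgeR fit did use those libraries, which chose the regions. Calls at these regions are therefore not independent of that choice. Median H3K27ac at the 34 regions was low in both lines, 0.402 to 0.667 CPM in QJ 6-1 and 1.27 to 1.59 in B6 5-1. H3K27ac fell in QJ 6-1 at 22 of the 34 regions (64.7%, edgeR quasi-likelihood test, Benjamini-Hochberg over all 192158 regions) and rose at 0, where 5.4% of all regions were called lower and 7.6% higher. The median log2 fold change of the 34 was -1.5, from -3.50 to 0.00, and over all tested chromosome 11 regions it was -0.12. H3K9me3 rose at 6 of the 34 (17.6%) and fell at 0, where 1.23% of all regions were called higher and 0.458% lower, and its median was 0.21. At 5 regions both changes were called. The 22 regions that fell included 17 of the 23 with the run and 5 of the 11 without it. The count of 22 was 14 without replicate 3 of B6 5-1, 14 without replicate 2 of QJ 6-1, and 10 by DESeq2.

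At the Eml6 region H3K27ac fell by 2.96 ± 0.28 (log2 fold change ± SE) in QJ 6-1 (adjusted p = 4.29e-11, edgeR) and H3K9me3 rose by 1.07 ± 0.25 (adjusted p = 0.00394, edgeR). The Sgcd region 47794007-47794619 had the strongest H3K9me3 rise of the 34, 2.36 ± 0.43 (adjusted p = 3.07e-05, edgeR), and H3K27ac fell there by 2.39 ± 0.40 (adjusted p = 1.94e-05, edgeR). The other regions of the 34 with a printed sequence did not pass: in the Abca13 region the H3K27ac change was -1.08 ± 0.45 (adjusted p = 0.107, edgeR), and in the region near Pom121l12 -1.53 ± 0.61 (adjusted p = 0.0919, edgeR). The region next to the latter, chr11:13546415-13546610, fell by 3.50 ± 0.72 (adjusted p = 0.000499, edgeR).

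The other regions where both marks were called lay far from genes. Chr11:14127608-14128750, 470.5 kb from Pom121l12 and without the run, lost H3K27ac by -1.63 ± 0.17 (log2 fold change ± SE) and gained H3K9me3 by 1.17 ± 0.26 in QJ 6-1 (adjusted p = 1.85e-09 and 0.00117, edgeR). Chr11:15729208-15729920, 527.8 kb from Vstm2a, gained H3K9me3 by 1.85 ± 0.34 and its H3K27ac change was -1.76 ± 0.59 (adjusted p = 3.12e-05 and 0.0399, edgeR). Chr11:12905765-12906616, 440.8 kb from Cobl, an actin-nucleator gene, had 1.16 ± 0.30 for H3K9me3 and -1.44 ± 0.37 for H3K27ac (adjusted p = 0.0159 and 0.00627, edgeR). In contrast, chr11:78850908-78852033, 4.0 kb from Lyrm9, gained H3K9me3 by 1.48 ± 0.27 (adjusted p = 4.15e-05, edgeR) while H3K27ac did not pass at -0.93 ± 0.40 (adjusted p = 0.125, edgeR). At chr11:40249036-40249619, 429.7 kb from Mat2b, the H3K27ac change was 0.00 ± 0.22 (adjusted p = 0.997, edgeR). The 34 regions were thus not uniform in the reciprocal line.

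**Figure D4:**
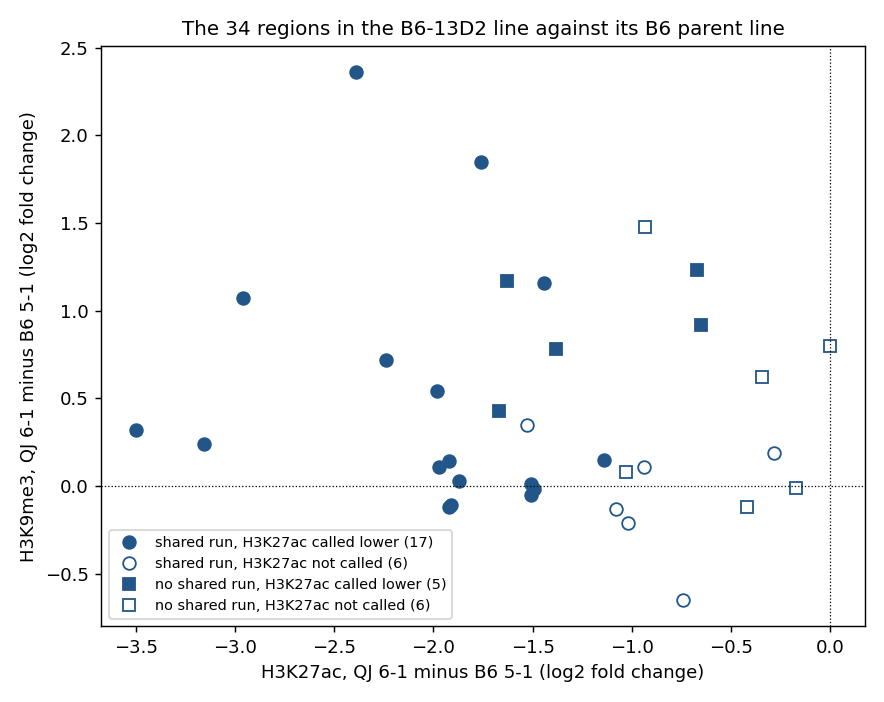
Log2 fold change of H3K27ac (x axis) and H3K9me3 (y axis) between QJ 6-1 and B6 5-1 at the 34 regions; circles hold the shared run, squares do not, and filled symbols were called lower in H3K27ac by edgeR. No point lies to the right of 0, 22 are filled, and H3K9me3 runs from -0.65 to 2.36.

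The sets defined by 1 mark were read the same way. Over all tested regions, 5.4% were called lower and 7.6% higher for H3K27ac, and 0.458% lower and 1.23% higher for H3K9me3. Of the 255 regions with H3K27ac above the XE 2-4 shift, 103 (40.4%) were called lower in QJ 6-1 and 7 (2.75%) higher, with a median of -0.74 (edgeR). Without the regions that hold the run, 79 of 210 (37.6%) were lower. Of the 115 regions with H3K27ac below the shift, 6 (5.22%) were lower and 11 (9.57%) higher, with a median of 0.12. These shares were near those over all regions. Of the 72 tested regions with H3K9me3 below the shift, 31 (43.1%) lost H3K27ac and 1 gained it, and of the 51 with H3K9me3 above it 6 lost and 6 gained. For H3K9me3 itself, 13 of the 74 regions below the shift were higher in QJ 6-1 and 9 lower, and of the 52 above the shift 0 were higher and 4 lower. All 67 regions with the run, in or out of the 34, were read as well: 33 of 64 tested (51.6%) were lower in H3K27ac, 64 of 64 had a fold change below 0, and 7 of 65 were higher in H3K9me3. Outside the 34 it was 16 of 41 (39.0%).

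**Figure D5:**
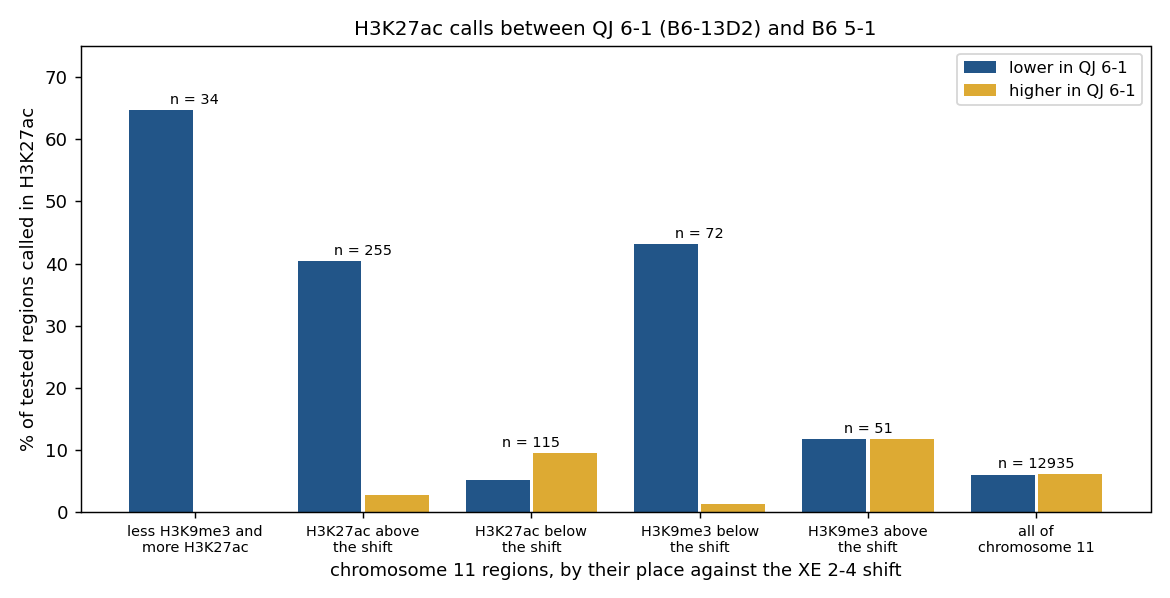
Percent of tested chromosome 11 regions called lower (blue) or higher (yellow) in H3K27ac in QJ 6-1 against B6 5-1 (y axis, edgeR), by the place of the region against the XE 2-4 shift (x axis), with the number tested over each pair of bars. Called lower were 64.7% of the regions with less H3K9me3 and more H3K27ac, 40.4% of those with H3K27ac above the shift and 5.93% of all chromosome 11 regions.

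Between lines that did not choose the members, the level of the whole chromosome was compared with a test. QJ 6-1 minus B6 5-1 was -0.03 for H3K9me3 and -0.07 for H3K27ac, and D2 5-5 minus B6 5-1 was 0.12 and 0.03. By an exact two-sided permutation test over samples these gave p = 0.3, 0.333, 0.1 and 0.333, and 0.333 in each case after adjustment over the 4 tests. The design allows no p under 0.1 for H3K9me3 and none under 0.333 for H3K27ac, so no call was possible. The samples overlapped only for H3K9me3 in QJ 6-1 and B6 5-1.

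On chromosome 11, edgeR called 73 of 6703 regions between QJ 6-1 and B6 5-1 for H3K9me3 (1.09%, against 1.69% over all regions), 39 higher and 34 lower in QJ 6-1, and 553 at an unadjusted p under 0.05. For H3K27ac it called 1555 of 12935 (12%, against 13%), 788 higher and 767 lower. With chromosome 11 scaled by its own factors, H3K27ac gave 1607 calls, 1085 higher and 522 lower. The H3K9me3 count was 47 without replicate 1 of B6 5-1 and 36 without either replicate of QJ 6-1, and the H3K27ac count was 812 without replicate 3 of B6 5-1 and 976 without replicate 2 of QJ 6-1. The largest H3K9me3 rise was at the Vps54 region described above. Chr11:116628318-116629522, 1.3 kb from Rhbdf2, rose with 38 and 44 counts against 2, 9 and 5, and the start of Pemt, a gene of phosphatidylcholine synthesis, fell with 5 and 3 against 15, 19 and 16. For H3K27ac, chr11:35080440-35081991, 39.2 kb from Slit3, rose by 2.48 ± 0.20 (adjusted p = 3e-13, edgeR), with 157, 156 and 145 counts against 27, 28 and 19. Chr11:64666941-64668014, 144.1 kb from Hs3st3a1, fell by 3.94 ± 0.29 (adjusted p = 1.81e-14, edgeR), with 10, 7 and 0 counts against 77, 87 and 74. In an intron of Brip1, a DNA helicase gene, chr11:86178311-86178509 was at least 9.4-fold lower, with 2, 3 and 2 counts against 21, 24 and 30.

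Between the parental lines the differences were broader. Of chromosome 11 regions, 601 (8.97%) were called for H3K9me3 between D2 5-5 and B6 5-1 by edgeR, 252 higher in D2 5-5 and 349 lower, against 11.3% of all regions, 4.58% higher and 6.76% lower. For H3K27ac it was 3478 (26.9%), 1923 higher and 1555 lower, against 28.1%, 14.7% and 13.4%. With the chromosome's own factors the H3K9me3 calls were 153 higher and 469 lower. The H3K9me3 count was 393 without replicate 1 of B6 5-1, 368 without replicate 1 of D2 5-5 and 274 without replicate 2 of D2 5-5. At 234 chromosome 11 regions the mean of the B6 separate lines differed from that of D2 2-9 and D2 5-5 by more than 1.5 (log2) in H3K9me3. There the slope of XE 2-4 minus D2 5-5, after the shift was taken off, on that strain difference was 0.13. A slope of 0 is the level of D2 5-5, and B6 5-1 minus D2 5-5 had 0.60. The slope was 0.12 at 3415 regions of the other autosomes and 1.25 at 228 regions of 65 to 70 Mb of chromosome 13, where XE 2-4 carries the B6 segment. B6 5-1 minus D2 5-5 had 0.62 at the former and 1.29 at the latter.

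Between XE 2-4 and D2 5-5, 185 chromosome 11 regions passed for H3K9me3, 151 higher and 34 lower, where 0.395% of all regions were higher and 1.81% lower, and the 151 were 44% of all regions called higher on any chromosome. For H3K27ac 1530 passed, 1497 higher and 33 lower, against 5.24% and 1.44%. With chromosome 11 scaled by its own factors, 104 were called for H3K9me3, 15 higher and 89 lower. For H3K27ac it was 698, 538 higher and 160 lower. Of these, 49 for H3K9me3 and 571 for H3K27ac were also called without that scaling, and the rest were new calls. Leaving out 1 library gave 24 (without replicate 1 of D2 5-5) to 428 (without replicate 1 of XE 2-4) for H3K9me3, and 681 for H3K27ac without replicate 2 of D2 5-5. These counts describe the contrast that chose the chromosome.

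For the shift of D2 203 the same rule was applied to its own median. For H3K27ac, 8 regions of 6132 lay above it and 7 below, 0.13% and 0.11% of those read, against 0.176% and 0.168% over all chromosomes. For H3K9me3, 12 of 2718 lay above and 73 below, 0.44% and 2.69%, against 0.52% and 2.29%. With 1 library for the line, these rest on single values, and under a minimum mean of 40 counts 0 regions were left in each of the 4 sets. Chr11:76996100-76996804, 1.8 kb from Slc6a4, the serotonin transporter gene, had 43 H3K27ac counts in D2 203, 12 in D2 2-9 and 22 in D2 5-5. In an intron of Ranbp17, chr11:33336655-33337191 had 10 counts against 29 and 30. For H3K9me3, chr11:48854400-48858623, 2.2 kb from Trim7, had 6 counts against 21 and 34, and chr11:19007259-19008512, within Meis1, a homeobox gene, was at least 4.35-fold lower with 3 counts against 14 and 13. At the start of Pmp22, a myelin gene, the level was at least 4.41-fold lower, with 3 counts against 9 and 20. The regions nearest the threshold lay at 1.002 and 0.992 above and -1.003 and -0.98 below for H3K9me3, and at 1.03 and 0.993, and -1.05 and -0.979, for H3K27ac.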

How the data were processed

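ChIP-seq of H3K9me3 and H3K27ac was read from 4 deposited tables of raw counts per region, with duplicate reads removed per the file headers. Trimmomatic 0.39, HISAT2 2.2.1, MACS 1.4.2, bedtools 2.9.2, edgeR and the build mm10 are named in the submitters' processing notes, without their roles. The members and lists were chosen with earlier results of these data known. Columns were matched to samples by library name, and 2 columns of values that matched no sample were not used. Log2 CPM used a prior count of 2, and shifts, windows, gene starts and departures from the shift used regions with a mean of at least 10 counts over the libraries read. Lines were compared by edgeR 4.0.16 (R 4.3.3) with TMM and its quasi-likelihood test on the regions kept by filterByExpr, which include regions under that mean, Benjamini-Hochberg over all regions, and called at an adjusted p under 0.05. All repeated lines of a mark were fitted together, with a shared filter, scaling and estimate of spread. DESeq2 1.42.0, other filters, other scaling and left-out libraries were alternatives. Scripts were tested on simulated data. Genes are from GENCODE M21, overlapped with GenomicRanges 1.54.1. Named regions are those with the largest departure from the shift or the largest called change in each comparison. Regions named for their departure in a single mark were at least 10 kb apart. Regions named for both marks or for a called change had no such spacing. Folds against groups of at most 3 counts per library are lower bounds.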

Additional observations from a re-analysis of the deposited data

Results flagged for a closer look

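The chromosome 11 level of each congenic line was set against its parental line of the same background, and the samples of the 2 congenic lines lay on opposite sides of those parental means. For H3K9me3, XE 2-4 lay 0.42 above D2 5-5, with its 3 samples from 0.37 to 0.45. QJ 6-1 lay -0.03 from B6 5-1, with its 2 samples at -0.05 and -0.01. These departures differed by 0.45 on the log2 scale, which compares lines and not backgrounds, with a single congenic line on each. For H3K27ac, XE 2-4 lay 0.29 above D2 5-5, with samples at 0.25 and 0.33, and QJ 6-1 -0.07 from B6 5-1, with samples at -0.08 and -0.07, a difference of 0.36. For QJ 6-1 this is no established fall: its H3K9me3 samples overlapped with those of B6 5-1 (exact two-sided permutation p = 0.3), and for H3K27ac the smallest p the design allows is 0.333. The difference was not tested, because the values of XE 2-4 chose the chromosome.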

How the results depend on the processing

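The chromosome 11 shift of XE 2-4 and D2 203 stayed above 0 in both marks under the alternatives run. For H3K9me3 in XE 2-4 it was 0.28 with no count filter, 0.23 with a mean of at least 40 counts and 0.37 to 0.43 with 1 library left out. In D2 203 it was 0.0659, 0.158 and, from summed counts, 0.091, and 0.112 to 0.118 without 1 of the other D2 lines. Under a minimum mean of 40 counts, XE 2-4 had 1 region above the shift and 7 below it in H3K9me3, and 133 and 25 in H3K27ac, and D2 203 had 0 in all 4 sets. Without replicate 1 of XE 2-4 the sets held 122 and 134, and 303 and 204, an alternative chosen after seeing the data. It left fewer XE 2-4 samples to meet the no-overlap rule. DESeq2 called 19 (QJ 6-1 against B6 5-1), 191 (D2 5-5 against B6 5-1) and 29 (XE 2-4 against D2 5-5) H3K9me3 regions, and 651, 2060 and 755 for H3K27ac. DESeq2 also called 10 of the 34 regions and 64 of the 255 lower in QJ 6-1, these subsets being chosen after seeing the data. Without a count filter, H3K9me3 calls were 47 and 94 for QJ 6-1 and XE 2-4, and under a minimum mean of 20 they were 42 for QJ 6-1 and 225 for D2 5-5. With chromosome 11 scaled by its own factors, XE 2-4 had 104 and 698 calls. The causes were not tested.

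With 1 library left out, H3K9me3 calls ranged from 36 to 61 for QJ 6-1, 274 to 479 for D2 5-5 and 24 to 428 for XE 2-4, and H3K27ac calls from 812 to 1399, 2477 to 3297 and 681 to 1766. Of the 34 regions 14 to 20, and of the 255 regions 77 to 96, were then called lower in QJ 6-1. The lone sample left in an arm is assumed to vary like the other groups.

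The labels give the same replicate numbers to the lines, but the numbers did not pair the libraries: the correlation of same-numbered libraries' deviations had a median of -0.01 for H3K9me3 (from -0.06 to 0.17) and 0.00 for H3K27ac (from -0.08 to 0.05). With each H3K27ac library as its own sample, QJ 6-1 had 2461 calls against B6 5-1, and 2431 with a replicate block. For H3K9me3 the replicate block gave 76, 581 and 145 calls for QJ 6-1, D2 5-5 and XE 2-4.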
